A study of Mus musculus with 8 samples.

Results

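The mitochondrial ribosomal protein genes of mouse were taken by name: every protein-coding gene whose symbol is Mrpl or Mrps followed by a number. That gave 78 of the 49315 genes in the count tables, 49 with an Mrpl symbol (large subunit) and 29 with an Mrps symbol (small subunit). They were measured by RNA sequencing in cardiomyocytes isolated at embryonic day 12.5 from C57/Bl6 mice, male and female pooled, and kept in culture. The control group (4 libraries) had control medium and the simvastatin group (4 libraries) had medium with 10 µM simvastatin, an inhibitor of the enzyme that makes mevalonate. No allele or other agent is named for either group, and how long the cells were in simvastatin is not stated. The extraction protocol in the labels speaks of dissected hearts and cardiac RNA, while the design text speaks of cultured cardiomyocytes. The libraries are called control 1 to 4 and simvastatin 1 to 4 by their replicate numbers. The labels do not say whether replicates are separate cultures. The p-values therefore reflect the spread among these libraries alone, and that spread may be technical.

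Mitochondria have their own ribosome, which makes the few membrane proteins that mitochondrial DNA encodes, all of them subunits of the respiratory chain and ATP synthase. Its ribosomal RNAs come from mitochondrial DNA, whereas all its proteins are encoded in the nucleus, made in the cytosol and imported. Heart muscle depends on this machinery, and inherited defects in several of these proteins, MRPL3 and MRPL44 among them, cause cardiomyopathy in children.

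All 78 genes passed the filter on low counts, with between 69 and 16377 counts in a library. They lie on 17 chromosomes. A further 5 symbols of the same form are processed pseudogenes and were left out. The highest of those, Mrpl23-ps1, had 50 to 104 counts and reached 3.28 CPM (counts per 1000000, scaled by TMM), and how far it shares reads with Mrpl23 was not tested. By structure the set divides differently from its names. Mrps30 and Mrps18a belong to the large subunit, and Mrps36 is now assigned to the 2-oxoglutarate dehydrogenase complex, which leaves 51 large-subunit and 26 small-subunit proteins. Exons of 31 of the genes share bases with another annotated gene, for 8 of them on the same strand, and the other 47 share none.

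With simvastatin, 5 of the 78 genes fell, Mrpl45, Mrpl18, Mrpl34, Mrpl12 and Mrps11, and 0 rose (edgeR quasi-likelihood test, adjusted p under 0.05). Over all 16126 genes tested the share called lower was 9.61% and the share called higher 7.79%, so the count of falling members was no larger than the background. The differences were small: the largest fall was 0.58 on the log2 scale and 60 of 78 members differed by less than 0.25. Their direction was more uniform than their size. The log2 fold change was below 0 in 70 of 78 members (89.7%) against 48.8% of all genes tested, and the median was -0.17 against 0.01 for all genes. Before the genes are taken up by role, the upstream sequences of the 5 that fell and the libraries that stand apart are described.

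The sequences shown are the 250 bases before the RefSeq start of each of the 5 genes that fell (GRCm38.p6, 5′ to 3′ on the gene's strand), since promoters of this family are known for sites of 3 activators of nuclear genes for mitochondrial proteins. Capitals mark matches to GCGCA, any base, then GCGC (NRF1), CCGGAAG (the core bound by ETS factors such as GABP) and AAGATGGCG (YY1), searched on both strands. The windows are chr11:97315466-97315715 on the plus strand for Mrpl45, chr17:12916092-12916341 on the minus strand for Mrpl18, chr8:71464676-71464925 on the plus strand for Mrpl34, chr11:120484387-120484636 on the plus strand for Mrpl12 and chr7:78782881-78783130 on the plus strand for Mrps11.
Mrpl45: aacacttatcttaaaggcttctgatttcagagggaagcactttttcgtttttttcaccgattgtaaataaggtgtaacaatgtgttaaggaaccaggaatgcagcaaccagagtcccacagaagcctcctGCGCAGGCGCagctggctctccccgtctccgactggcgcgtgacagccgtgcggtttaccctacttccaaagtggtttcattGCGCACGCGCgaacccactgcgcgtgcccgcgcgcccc
Mrpl18: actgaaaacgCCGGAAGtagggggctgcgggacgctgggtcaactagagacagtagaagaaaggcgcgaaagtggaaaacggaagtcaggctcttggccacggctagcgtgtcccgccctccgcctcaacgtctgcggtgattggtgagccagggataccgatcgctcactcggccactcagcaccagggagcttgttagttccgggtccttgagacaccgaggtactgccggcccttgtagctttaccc
Mrpl34: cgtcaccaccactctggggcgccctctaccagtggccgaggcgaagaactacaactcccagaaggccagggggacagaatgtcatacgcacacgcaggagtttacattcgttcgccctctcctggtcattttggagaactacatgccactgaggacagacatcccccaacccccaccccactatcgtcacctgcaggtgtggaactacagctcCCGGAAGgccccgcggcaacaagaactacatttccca
Mrpl12: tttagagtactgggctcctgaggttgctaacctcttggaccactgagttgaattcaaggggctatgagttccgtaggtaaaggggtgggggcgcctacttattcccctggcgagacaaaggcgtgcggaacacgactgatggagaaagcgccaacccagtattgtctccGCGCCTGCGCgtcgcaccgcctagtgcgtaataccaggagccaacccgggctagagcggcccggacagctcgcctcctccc
Mrps11: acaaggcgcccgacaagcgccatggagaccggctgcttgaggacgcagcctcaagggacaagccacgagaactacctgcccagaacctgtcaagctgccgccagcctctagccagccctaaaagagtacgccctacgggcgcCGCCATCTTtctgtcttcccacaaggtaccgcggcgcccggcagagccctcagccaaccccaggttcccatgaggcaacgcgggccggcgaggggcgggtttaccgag
Mrpl45 held 2 NRF1 matches and Mrpl12 held 1, and Mrpl18 and Mrpl34 each held 1 ETS match. Mrps11 held 1 YY1 match, read there as CGCCATCTT on the opposite strand. The Mrpl18 window, with its ETS match, lies inside that gene as annotated for the counts (chr17:12911349-12916345), whose start differs from the RefSeq start. The Mrps11 window lies inside the annotated neighbour Mrpl46 (chr7:78775236-78783531).

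RefSeq windows were found for 69 of the 78 genes. The NRF1 letters stood in 10 of them (14.5%), against 4.23% of 27025 genes with a window of the same length. The ETS letters stood in 18 (26.1%), against 7.83%. The YY1 letters stood in 2 (2.9%), against 0.71%. At least 1 of the 3 was present in 29 of the 69 (42.0%), against 11.8% of all 27025 genes. Those genes were not limited to protein-coding genes that passed the count filter, as the members are. They were not matched with the members for base composition either. Among the members, those with and without each motif had close median log2 fold changes: -0.14 and -0.18 for NRF1, -0.18 and -0.15 for ETS, and -0.22 and -0.17 for YY1. These matches describe the letters of the window and are not evidence of binding.

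Totals ran from 30474586 to 35215640 counts per library, and the file headers put replicates 1 and 3 of each group in set 1 and replicates 2 and 4 in set 2, with no word on what a set was. Cardiomyocyte markers were abundant in every library: the 11 genes of that list summed to 57872 to 69894 CPM in controls and 71059 to 74848 with simvastatin, and 2 of them rose. The 6 smooth muscle and pericyte markers summed to 2523 to 3643 CPM in controls and 442 to 659 with simvastatin, and 5 fell. The 8 fibroblast and mesenchyme markers summed to 2310 and 2541 CPM in controls 1 and 3, to 1154 and 1145 in controls 2 and 4, and to 1236 to 1440 with simvastatin. Over all libraries 3 of them fell (Col3a1, Pdgfra and Tcf21) and 0 rose. In set 1 alone 6 fell and 0 rose, and in set 2 alone 0 fell and 3 rose. Of the remaining lists, 3 of 6 immune, 2 of 6 epicardial and 1 of 7 endothelial markers fell, while 3 of 5 tested erythroid, 2 endothelial and 1 epicardial marker rose. What part these cell type differences have in the results below was not tested, and in bulk RNA fewer cells of a type and less RNA per cell cannot be told apart.

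Control 3 stood apart for this gene set. The summed level of the 78 genes was 5880 CPM in control 1, 6061 in control 2, 6976 in control 3 and 5832 in control 4, and 5585, 5425, 5423 and 5560 in simvastatin 1 to 4. All simvastatin sums were thus below all control sums. The sum in control 3 was well above the rest, though the search for outlying libraries described below did not flag it. Of the 78 members 59 (75.6%) had their highest value in control 3, against 17.6% of all tested genes. Without control 3, 3 of the 5 calls were made (Mrpl45, Mrpl18 and Mrpl34), 61 members instead of 70 had a log2 fold change below 0, and the median was -0.10 instead of -0.17. The genes for cytosolic ribosomal proteins were also highest in control 3, at a summed 19274 CPM against 13513 to 17889 in the other libraries of both groups. Control 3 had as well the highest fibroblast marker sum and the lowest cardiomyocyte marker sum of the 8 libraries, and their part in its high member level was not tested.

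**Figure D1:**
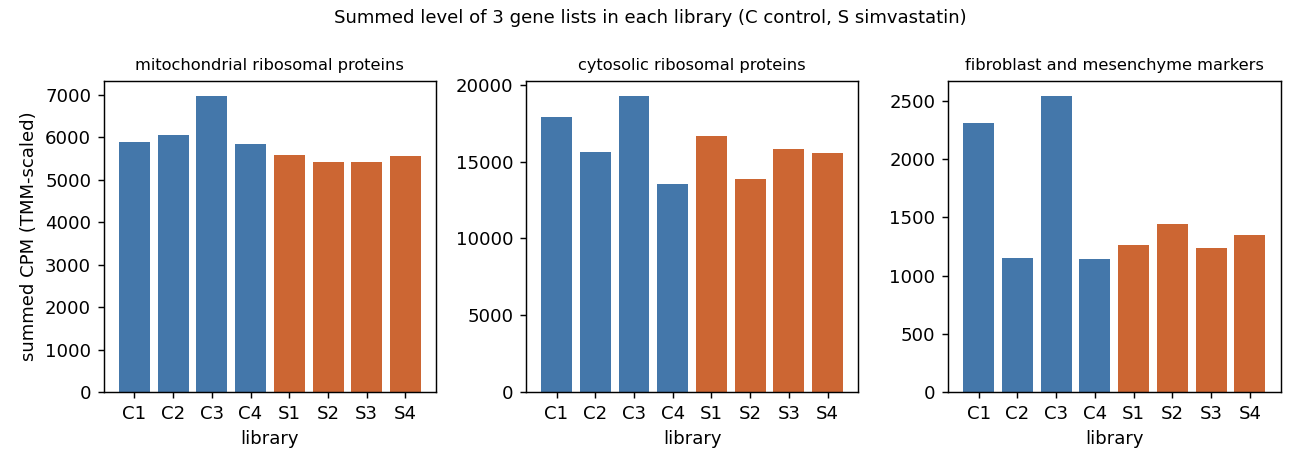
Summed CPM of the mitochondrial ribosomal protein genes, of cytosolic ribosomal protein genes and of fibroblast and mesenchyme markers in each library, with controls (C1 to C4) in blue and simvastatin (S1 to S4) in orange and every axis from 0. The 4 simvastatin sums of mitochondrial ribosomal proteins, 5423 to 5585, lie below the 4 control sums, of which C3 is highest at 6976.

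Mrpl45 had the largest fall. It encodes a large-subunit protein at the mouth of the exit tunnel, related to a factor that ties the ribosome to the inner membrane, and lies at chr11:97315716-97329920. Its level was 122, 128, 153 and 134 CPM in controls 1 to 4 and 89.6, 92.1, 86.3 and 92.4 CPM in simvastatin 1 to 4. The groups did not overlap and the simvastatin values lay within a few CPM of each other. The means were 134 ± 13.6 and 90.1 ± 2.84 CPM (SD, n = 4), with a log2 fold change of -0.58 ± 0.09 (SE) and an edgeR adjusted p of 0.00197. The call held when each library was left out in turn, with adjusted p from 0.00329 to 0.011. Within set 2 the log2 fold change was -0.51 (adjusted p = 0.00442), and within set 1 it was -0.66 but did not pass the test (adjusted p = 0.0628).

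Mrpl18, at chr17:12911349-12916345, encodes a protein of the central protuberance, the part of the large subunit that in bacteria carries the 5S RNA. It measured 146, 153, 173 and 158 CPM in the controls and 118, 125, 115 and 126 CPM with simvastatin. Every simvastatin value was below every control value. The log2 fold change was -0.38 ± 0.09 (edgeR adjusted p = 0.0122), with -0.47 in set 1 (adjusted p = 0.115) and -0.31 in set 2 (adjusted p = 0.0352). Without simvastatin 3 its adjusted p was 0.0506. Its exons share bases with Tcp1, a cytosolic chaperonin subunit on the opposite strand, and without knowledge of the strand setting those reads cannot be told apart.

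Mrpl34, at chr8:71464959-71465747, encodes the counterpart of bacterial L34, one of the smallest ribosomal proteins. Its values were 80.0, 79.5, 93.3 and 75 CPM in the controls and 66.6, 62.5, 59.9 and 57.9 CPM with simvastatin, again without overlap. The log2 fold change was -0.41 ± 0.10 (edgeR adjusted p = 0.0167), with -0.47 in set 1 (adjusted p = 0.144) and -0.36 in set 2 (adjusted p = 0.032). Leaving out simvastatin 3 or simvastatin 4 took the adjusted p to 0.06 and 0.0635.

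Mrpl12 encodes the L7/L12 protein of the stalk, which recruits the translation factors, and it has also been described as a partner of the mitochondrial RNA polymerase. At chr11:120484613-120489065, it measured 229, 243, 265 and 212 CPM in the controls and 192, 185, 197 and 191 CPM with simvastatin. The lowest control and the highest simvastatin library were close, and the groups did not overlap. The log2 fold change was -0.31 ± 0.09 (edgeR adjusted p = 0.0367), with -0.36 in set 1 (adjusted p = 0.178) and -0.28 in set 2 (adjusted p = 0.0813). The call was lost when any library but control 4 was left out, with adjusted p from 0.0605 to 0.105.

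Mrps11, at chr7:78783119-78792989, was the small-subunit member that fell. It encodes a protein of the platform that lies next to the messenger RNA's exit. Its values were 48.6, 43.7, 54.8 and 42.0 CPM in the controls and 38.4, 38.0, 36.0 and 34.0 CPM with simvastatin, with no overlap. The log2 fold change was -0.37 ± 0.11 (edgeR adjusted p = 0.0452), with -0.49 in set 1 (adjusted p = 0.13) and -0.25 in set 2 (adjusted p = 0.158). As for Mrpl12, this call was lost when any library but control 4 was left out, with adjusted p from 0.0654 to 0.127. Its neighbour Mrpl46, looked at after the values were seen, runs the other way from a start that overlaps Mrps11 by 413 bases. Mrpl46 measured 47.7, 49.1, 60.6 and 48.0 CPM in the controls and 53.8, 48.9, 43.0 and 45.9 CPM with simvastatin. Its groups overlapped (log2 fold change -0.10 ± 0.12, edgeR adjusted p = 0.634). The difference between the responses of the 2 neighbours was not tested.

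**Figure D2:**
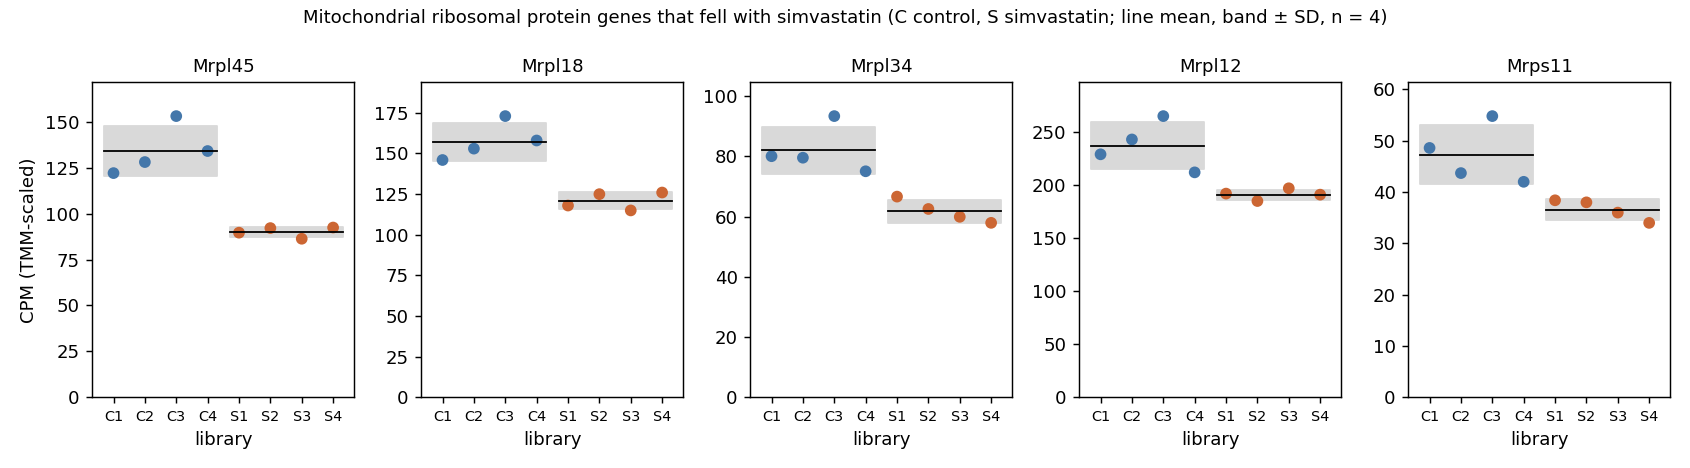
CPM of Mrpl45, Mrpl18, Mrpl34, Mrpl12 and Mrps11 in each control (blue) and simvastatin (orange) library, with the group mean as a line and ± SD as a band (n = 4), on linear axes from 0. In all 5 panels the simvastatin points lie below the control points, and C3 is the highest control.

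Just above the threshold were Mrpl47, Mrpl37 and Mrps6. Mrpl47, the counterpart of bacterial L29 beside the tunnel exit, measured 27.7 to 30.8 CPM in the controls and 20.3 to 27.0 CPM with simvastatin (log2 fold change -0.34 ± 0.12, edgeR adjusted p = 0.0702). It passed without simvastatin 4 (adjusted p = 0.0473), with DESeq2 (adjusted p = 0.0443) and with set as a term in edgeR. Its exons share bases with Actl6a and Ndufb5 on the opposite strand. Mrpl37, a protein found only in mitochondrial ribosomes, measured 118 to 134 CPM and 92.3 to 112 CPM (-0.26 ± 0.09, adjusted p = 0.0768). Neither overlapped between groups. Mrps6, which shares exonic bases with Slc5a3 on the same strand, measured 79.6 to 117 CPM and 75 to 81.1 CPM with overlap (-0.33 ± 0.12, adjusted p = 0.0894), and passed without control 4 (adjusted p = 0.0269). At an unadjusted edgeR p under 0.05, 16 members were lower and 0 higher, against 15.4% of all genes lower. The share of all genes higher at that threshold was not computed. DESeq2 called 6 members lower and 0 higher, against 11.4% and 10.5% of all genes. limma-voom called 5 lower and 0 higher, against 9.52% and 7.84%.

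In 18 of the 78 members the groups did not overlap with simvastatin lower, and in 0 with simvastatin higher. Over all tested genes those shares were 12.1% and 11%. Beside the 5 called genes and Mrpl47 and Mrpl37, they were Mrpl15, Mrpl30, Mrpl38, Mrpl42, Mrpl48, Mrpl49, Mrpl50, Mrpl53, Mrpl55, Mrps18b and Mrps22. Of these 18, 15 carry an Mrpl symbol, as do 49 of all 78 members. At an unadjusted edgeR p under 0.05, 9 of the 49 Mrpl genes and 7 of the 29 Mrps genes were lower. The difference between the 2 kinds of symbol was not tested. Only 8 members lay above 0. Mrps23, a small-subunit protein without a bacterial counterpart, had the largest value, with 72.5 to 88.2 CPM in the controls and 87.0 to 100 CPM with simvastatin (0.21 ± 0.10, edgeR adjusted p = 0.178). Mrps18c followed (0.15 ± 0.11, adjusted p = 0.432) and then Mrpl9 (0.07 ± 0.10, adjusted p = 0.703). None of these 3 passed the test.

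**Figure D3:**
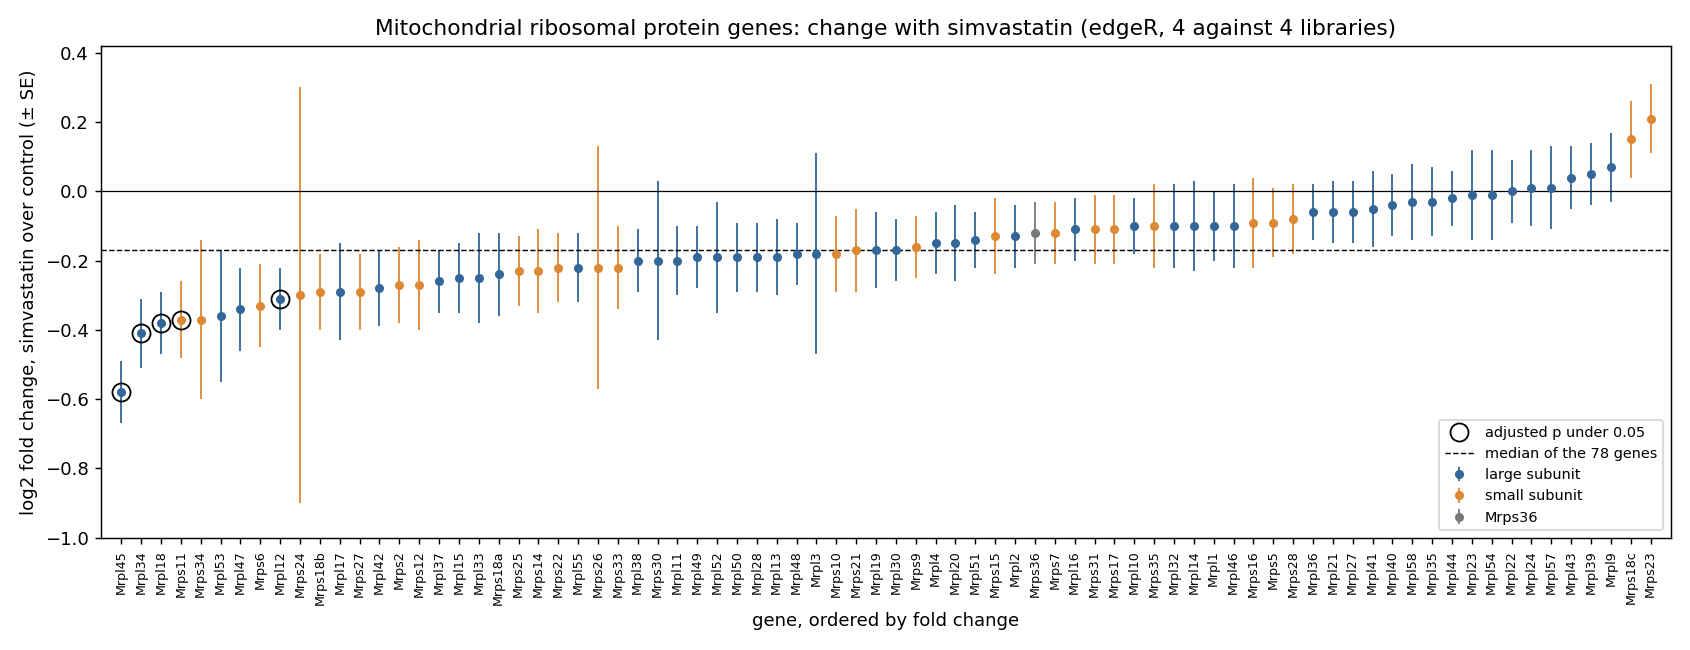
Log2 fold change of each of the 78 genes, simvastatin over control, ± SE from edgeR, ordered by size and coloured by subunit, with the genes at an adjusted p under 0.05 circled and the median as a dashed line. Most points lie between 0 and the values of the 5 circled genes, around a median of -0.17, and the widest bars belong to Mrps24, Mrps26 and Mrpl3.

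The members were next grouped by place in the ribosome, and differences between these groups were not tested. Of the 51 large-subunit proteins 4 fell (median log2 fold change -0.15), and of the 26 small-subunit proteins 1 fell (median -0.20). Of the 46 with a bacterial counterpart 4 fell (median -0.15), and of the 31 particular to mitochondria 1 fell (median -0.19). Over all genes tested the share called lower was 9.61%. In the central protuberance, all 8 members had a log2 fold change below 0 (median -0.18) and 1 fell, Mrpl18. The stalk and its base, where GTP-hydrolysing translation factors bind, comprise 4 members, all below 0 (median -0.25): Mrpl12 fell, while Mrpl53 (-0.36 ± 0.19), Mrpl11 (-0.20 ± 0.10) and Mrpl10 (-0.10 ± 0.08) did not pass the test. The 8 proteins around the tunnel exit had a median of -0.01. Mrpl45 fell, Mrpl47 was at -0.34 without passing, and Mrpl22 (0.00), Mrpl23 (-0.01), Mrpl24 (0.01), Mrpl39 (0.05) and Mrpl44 (-0.02) lay near 0. The signs of those last 5 changed with the processing. Mrpl17 did not pass and depended on the libraries used, at -0.29 ± 0.14 over all 8 (edgeR adjusted p = 0.211), -0.15 without control 3, -0.53 in set 1 and -0.03 in set 2. Among members with no exonic overlap with another gene 2 of 47 fell, Mrpl45 and Mrpl34, with a median of -0.15.

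The S18 family has 3 copies, each thought to occupy its own place: Mrps18a in the large subunit, Mrps18b and Mrps18c in the small subunit. Mrps18b measured 40.8 to 52.6 CPM in the controls and 35.6 to 37.5 CPM with simvastatin, without overlap (-0.29 ± 0.11, edgeR adjusted p = 0.0976). Mrps18a had a log2 fold change of -0.24 ± 0.12 (adjusted p = 0.214), and Mrps18c the opposite sign, as given above. None of the 3 passed, and differences between them were not tested. Of the genes tied to heart disease or heart function, Mrps22 measured 33.4 to 35.1 CPM in the controls and 27.1 to 31.5 CPM with simvastatin, without overlap (-0.22 ± 0.10, adjusted p = 0.158). Mrpl44 had 49.5 to 52.8 CPM and 48.7 to 51.7 CPM, which makes it the member with the smallest spread within groups (-0.02 ± 0.08, adjusted p = 0.922). Mrps5 had 52.0 to 59.6 CPM and 46.2 to 53.5 CPM (-0.09 ± 0.10, adjusted p = 0.6), and Mrps36 80.0 to 88.6 CPM and 71.2 to 87.3 CPM (-0.12 ± 0.09, adjusted p = 0.452).

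The sets were also fitted apart. In set 1 alone (2 against 2) 0 members fell and the median was -0.23, with 5.91% of all genes called lower and 3.91% higher. In set 2 alone 7 members fell and the median was -0.10, with 11.5% of all genes called lower and 6.79% higher. Of those 7, Mrpl45, Mrpl18 and Mrpl34 were shared with the fit of all libraries, and the other 4 were Mrps24, Mrps26, Mrps34 and Mrpl3. The treatment-by-set interaction in edgeR called 0 members, with a lowest adjusted p of 0.211, and 9 genes (0.0558%) of the whole table. At an unadjusted p under 0.05 it held 5 of 78 members, against 11.5% of all genes.

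Those 4 genes, named after their values were seen, differed widely between libraries of the same group. Mrps24, the counterpart of bacterial S3 at the messenger RNA entry, measured 7.15, 34.7, 41.6 and 40.0 CPM in controls 1 to 4 and 34.6, 10.8, 46.4 and 8.36 CPM in simvastatin 1 to 4. It was low in control 1, simvastatin 2 and simvastatin 4 and between 34.6 and 46.4 CPM in the other 5 libraries. Mrps26, a mitochondria-specific small-subunit protein, measured 14.4, 34.8, 43.2 and 36.0 CPM in the controls and 33.5, 19.6, 40.1 and 16.9 CPM with simvastatin. Mrpl3, a large-subunit protein near the catalytic centre, measured 29.8, 91.4, 78.2 and 80.5 CPM in the controls and 66.2, 56.7, 76.3 and 47.9 CPM with simvastatin. Mrps34, a mitochondria-specific small-subunit protein, measured 23.9, 40.2, 50.9 and 38.3 CPM in the controls and 34.7, 27.3, 34.8 and 21.6 CPM with simvastatin. All 4 had their lowest values in the same 3 libraries. For Mrpl3 and Mrps34, every simvastatin value also lay below controls 2, 3 and 4. With 1 library left out, the log2 fold change ran from -0.44 to -0.03 for Mrpl3 and from -0.55 to -0.20 for Mrps34.

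These 3 libraries come from both groups and both sets, but 2 of them are the simvastatin libraries of set 2. Over all 8 libraries none of the 4 genes passed the test, with log2 fold changes of -0.30 ± 0.60 for Mrps24, -0.22 ± 0.35 for Mrps26, -0.18 ± 0.29 for Mrpl3 and -0.37 ± 0.23 for Mrps34 (edgeR adjusted p from 0.31 to 0.804). In set 2 alone Mrps24 was at -1.96 (adjusted p = 0.000151), Mrps26 at -0.96 (0.00119), Mrpl3 at -0.72 (0.00345) and Mrps34 at -0.68 (0.00965). In set 1 alone, where control 1 is the low library, the first 3 had the opposite sign, at 0.70, 0.33 and 0.37, and Mrps34 was at -0.13. Other genes had the same pattern. Of 10301 genes with a mean of at least 5 CPM, 449 (4.36%) were lower in these 3 libraries than in every other library of the same group, by at least 1.5-fold between the means within both groups, and 24 were higher by the same rule. Of 76 members at that level 2, Mrps24 and Mrps26, were lower by the rule and 0 higher. With no minimum fold the lower count was 1180 genes (11.5%), with 5 members: Mrps24, Mrps26, Mrps34, Mrpl3 and Mrps15. All 4 genes share exonic bases with another gene, on the same strand for Mrps24 (Urgcp), Mrpl3 (Gm38077) and Mrps34 (Nme3) and on the opposite strand for Mrps26 (4930473A02Rik), and the part of those neighbours was not tested. Without the 3 libraries, 2 members fell, Mrpl45 and Mrpl18, 68 were below 0 and the median was -0.19.

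**Figure D4:**
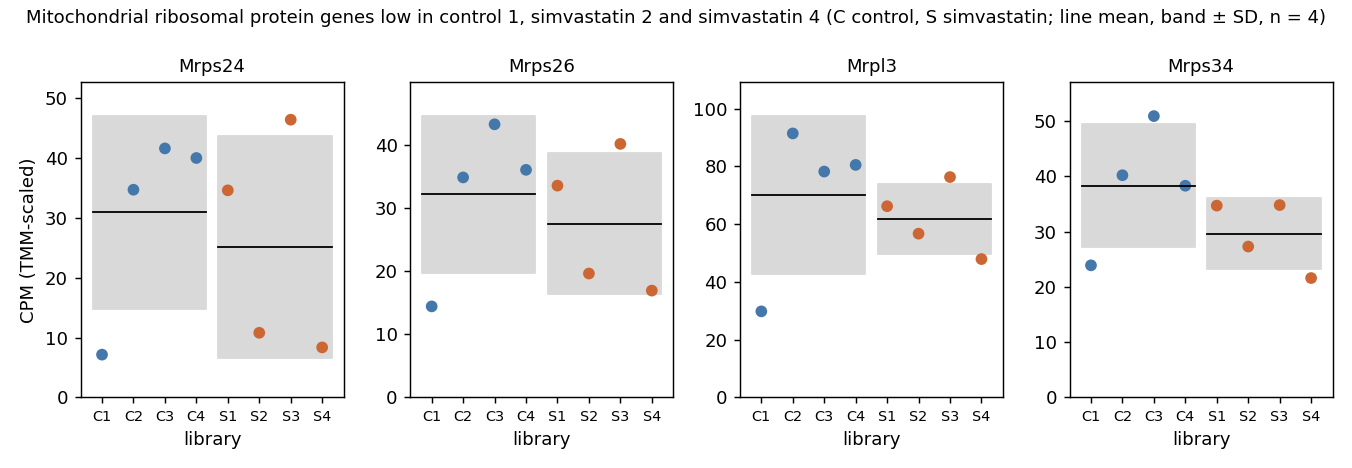
CPM of Mrps24, Mrps26, Mrpl3 and Mrps34 in each control (blue) and simvastatin (orange) library, with the group mean as a line and ± SD as a band (n = 4), on linear axes from 0. The 3 low points of each panel are C1, S2 and S4, for Mrps24 at 7.15, 10.8 and 8.36 CPM.

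Apart from these genes the set was tight. The SD of log2 values within groups had a median of 0.121 over the members, against 0.204 over all genes of at least 5 CPM, and ranged from 0.0418 for Mrpl44 to 1.22 for Mrps24. It was above 0.5 in 3 members (Mrps24, Mrps26 and Mrpl3), or 3.85%, against 6.36% of all those genes. The members, 76 of which reached 5 CPM, were not matched with those genes for level, on which the spread also depends.

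Levels are compared between genes as TPM, counts per kilobase of annotated exon scaled to 1000000 per library. In the controls the members had a median of 90.3 TPM, with the middle 50% between 42.2 and 150 TPM, against a median of 8.11 TPM over all tested genes, 301 TPM for 81 cytosolic ribosomal protein genes and 772 TPM for 86 respiratory chain genes. Large-subunit genes had a median of 93.0 TPM and small-subunit genes 58.0 TPM. Although the ribosome holds most of these proteins in equal numbers, their messages differed 284-fold from the lowest to the highest. The highest was Mrpl42, a mitochondria-specific protein of the large subunit, at 1570 ± 164 TPM (SD, n = 4) over an annotated length of 666 bases. It was followed by Mrps21 (405 ± 59.4), Mrpl12 (401 ± 24.7), Mrpl28 (396 ± 35.5) and Mrpl54 (384 ± 52.7). Those 4 did not differ beyond their spread. Mrpl12 is also the member present in several copies on each ribosome.

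At the other end, Mrps30 had 5.53 ± 0.962 TPM and Mrpl53 9.94 ± 1.07 TPM, the 2 members under 10 TPM. Next came Mrps35 (16.3 ± 2.16), Mrpl47 (17.3 ± 0.523) and Mrpl13 (17.7 ± 0.931), which did not differ beyond their spread. Both of the lowest share exonic bases with other genes, Mrps30 with B430218F22Rik on the opposite strand and Mrpl53 with Gm42688 on the same strand. In CPM, Mrps30 measured 2.85 to 4.44 in the controls and 2.40 to 4 with simvastatin. Mrpl53 measured 2.65 to 3.63 CPM and 2.16 to 2.63 CPM, without overlap (-0.36 ± 0.19, edgeR adjusted p = 0.238). Annotated exons include bases that these cells may not use, as in Mrps35 with 8631 bases, so a TPM value moves with the annotation.

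**Figure D5:**
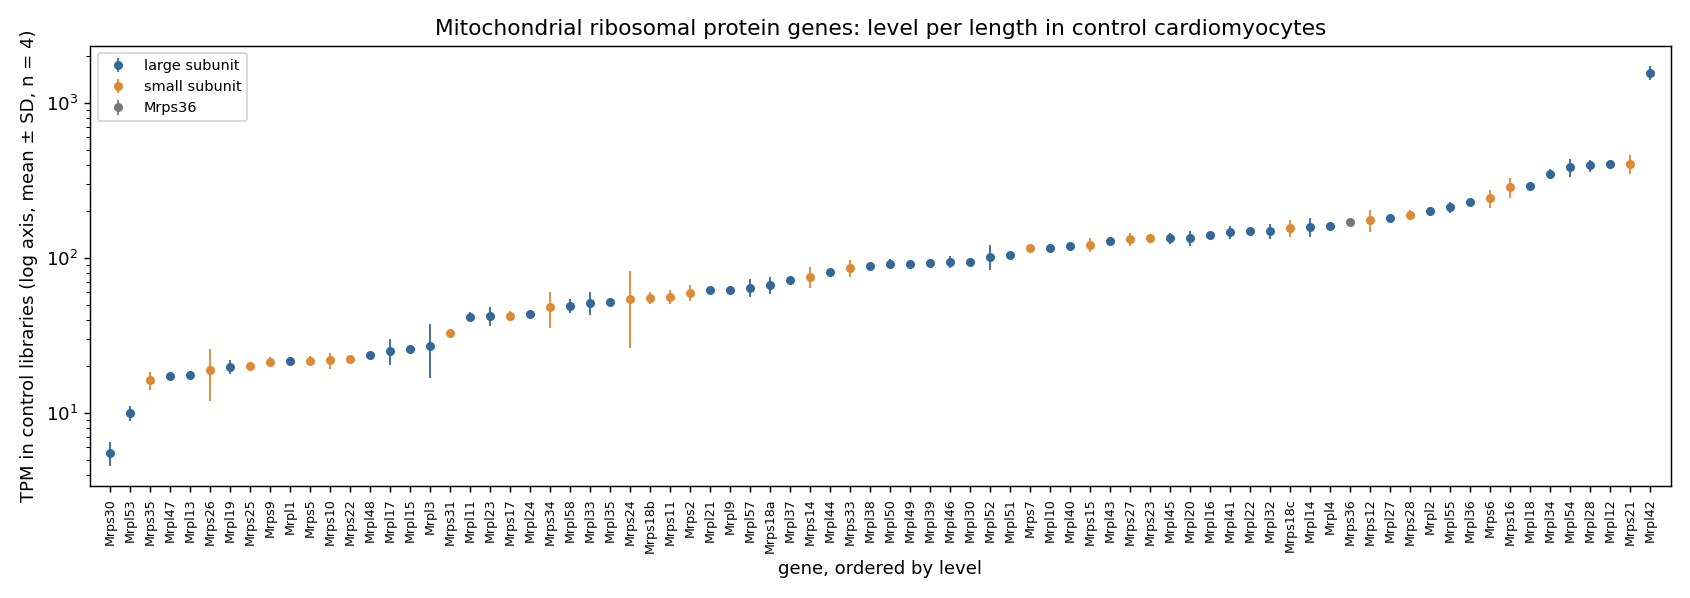
TPM of each of the 78 genes in the control libraries (mean ± SD, n = 4) on a log axis, ordered by level and coloured by subunit. Of the 78 genes 42 lie between 50 and 200 TPM, Mrpl42 stands above the rest at 1570 TPM, and Mrps30 and Mrpl53 lie under 10 TPM.

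Other genes of mitochondrial translation were counted list by list, beside shares over all genes tested of 9.61% called lower and 7.79% called higher. Of 5 ribosomal proteins with other symbols (Dap3, Ptcd3, Chchd1, Aurkaip1 and Gadd45gip1) 0 fell and 0 rose (median -0.23). The lowest was Ptcd3, at -0.39 ± 0.16 (edgeR adjusted p = 0.138). Of 17 mitochondrial aminoacyl-tRNA synthetases, which charge the tRNAs that the ribosome reads, 3 fell and 0 rose (median 0.02). Sars2, for serine, measured 24.2 to 33.4 CPM in the controls and 19.6 to 21.3 CPM with simvastatin (-0.48 ± 0.12, adjusted p = 0.0198). Ears2, for glutamate, was at -0.45 ± 0.12 (adjusted p = 0.0244), and Yars2, for tyrosine, at -0.72 ± 0.19 (adjusted p = 0.0233). None of the 3 overlapped between groups. Of 16 translation factors 0 rose and 0 fell (median -0.08). Tufm, the elongation factor that brings tRNAs to the ribosome, was at -0.17 ± 0.09 (adjusted p = 0.212).

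Of 26 genes for assembly of the ribosome and modification of its RNA, 1 rose, 0 fell and the median was 0.01. The riser was Mrm1, a methyltransferase of the large ribosomal RNA. It measured 21.6, 27.4, 27.4 and 29.7 CPM in the controls and 75.4, 60.8, 70.5 and 57.0 CPM with simvastatin. The groups were far apart, with means of 26.5 ± 3.46 and 65.9 ± 8.50 CPM (SD, n = 4), a log2 fold change of 1.31 ± 0.13 and an edgeR adjusted p of 0.000116. No member of the ribosome itself changed by as much: 0 of 78 reached a log2 fold change of 1 in either direction. Over these 4 lists together with mitochondrially encoded mRNAs and the genes for mitochondrial DNA transcription and replication, 3 genes fell and 1 rose. The count of 3 went to 0 without simvastatin 3, to 1 without control 2 or simvastatin 1, 2 or 4, and to 2 without control 1, 3 or 4. In the assembly list Mpv17l2, Rbfa and Malsu1 were low in control 1, simvastatin 2 and simvastatin 4, as Mrps24 was. Mpv17l2 measured 4.78, 33.4, 41.9 and 31.7 CPM in the controls and 39.2, 19.4, 44.2 and 13.8 CPM with simvastatin. What part this pattern has in the counts of these lists was not tested.

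The products of this ribosome were measured through their mRNAs only. Of 13 mitochondrially encoded mRNAs 0 rose and 0 fell (median 0.17), and mitochondrially encoded genes took 1.99% ± 0.374 of counts in the controls and 1.98% ± 0.217 with simvastatin (SD, n = 4; exact permutation test, two-sided, p = 0.971, also 0.971 after adjustment over 2 measures). These mRNAs were counted very unevenly: control means were 6569 CPM for mt-Co1 but 49.2 for mt-Co2, 117 for mt-Co3 and 1.26 for mt-Nd4l. The reason was not tested, and the share of counts rests mostly on the highly counted mRNAs. Mitochondrial ribosomal RNA was not analysed here. Of 10 genes for transcription and replication of mitochondrial DNA 0 passed (median -0.10), with Tfam, which packages that DNA, at -0.26 ± 0.11 (edgeR adjusted p = 0.137). Of 86 nuclear respiratory chain genes 5 fell and 0 rose (median -0.14, 83.7% below 0): Atp5g1 (-0.49 ± 0.12), Ndufb10 (-0.43 ± 0.12), Ndufa8 (-0.42 ± 0.12), Sdhd (-0.29 ± 0.08) and Cox4i2 (-1.84 ± 0.47). Of 81 cytosolic ribosomal protein genes, taken by symbol and with like-named relatives included, 1 fell and 0 rose (median -0.11, 85.2% below 0). The gene that fell was such a relative, Rpl7l1 (-0.36 ± 0.09, edgeR adjusted p = 0.0227). A share of negative fold changes near that of the members (89.7%) was thus seen in both of these lists, and the sums of both were highest in control 3 as well.

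Regulators known for driving these genes did not pass the test in either direction (0 of 11, median -0.20). Myc, which raises ribosome synthesis in dividing cells, measured 66.2, 31.0, 59.3 and 28.5 CPM in the controls and 24.7, 23.8, 29.5 and 26.9 CPM with simvastatin (-0.82 ± 0.26, edgeR adjusted p = 0.0528). Controls 1 and 3, of set 1, were about as far above controls 2 and 4 as for the fibroblast markers. Nrf1, the activator whose letters are marked above, measured 47.9 to 57.0 CPM and 40.8 to 44.9 CPM (-0.29 ± 0.10, adjusted p = 0.0675), Gabpa was at 0.00 ± 0.17 (adjusted p = 0.998) and Yy1 at 0.01 ± 0.26 (adjusted p = 0.987). Of 12 genes listed here for the mitochondrial stress response, 2 rose and 1 fell, with a median of -0.08. Trib3 (1.08 ± 0.12, edgeR adjusted p = 0.000235) and Ddit3 (0.78 ± 0.12, adjusted p = 0.00122) rose. Hspe1, the small mitochondrial chaperonin, fell (-0.69 ± 0.11, adjusted p = 0.00208). Atf4 (0.21 ± 0.11, adjusted p = 0.234), Hspd1 (-0.32 ± 0.11, adjusted p = 0.077) and Hspa9 (-0.24 ± 0.13, adjusted p = 0.256) of the same list did not pass.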

How the data were processed

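RNA sequencing counts of 8 libraries, 4 control and 4 simvastatin, were grouped by the sample titles. The authors deposited unnormalized counts for each gene. The submitters' processing notes name Trimmomatic 0.36, STAR 2.5.2b, featureCounts and Subread 1.5.2, with the builds GRCm38 and mm10. Strand setting, annotation release and library kit were not given in the sources used. Coordinates are those of the files (GRCm38, 1-based). Symbols came from a reference list of mouse gene names that held 99.3% of identifiers, and otherwise from GENCODE M21. Gene types came from GENCODE M21, which had identical positions for 65 of the 78 members. Totals ran from 30474586 to 35215640 counts, and no pair of libraries within a group agreed within sampling noise.

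All genes were fitted together with edgeR 4.0.16 (R 4.3.3): TMM scaling, filterByExpr (16126 of 32927 genes with any count), quasi-likelihood F test, treatment as the only term, two-sided, Benjamini-Hochberg adjustment over all genes at 0.05. The common BCV (biological coefficient of variation) was 0.222. CPM use TMM-scaled totals, and TPM use the length column of the files. The edgeR step was tested on simulated data. Alternatives were DESeq2 1.42.0, limma-voom (limma 3.58.1), other scalings and filters, the replicate number as a block, set as a term, each set alone, each library left out, members without overlapping genes and, chosen after seeing the data, 3 libraries left out. Library measures were compared in Python 3.11.15 by an exact permutation test.

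The members and lists were chosen with earlier results of these data known. Named by rule were called members, the 3 largest rises and falls, the 4 highest and 4 lowest by TPM, the 3 just above the threshold, the stalk, tunnel-exit and S18 lists, Mrps30, Mrps36, Mrpl3, Mrpl44, Mrps22 and Mrps5; Mrps24, Mrps26, Mrps34 and Mrpl46, and genes listed for not overlapping, were named after their values were seen. Symbols of 5 list entries, mitochondrial ribosomal RNA among them, matched no row used here.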

Additional observations from a re-analysis of the deposited data

Results flagged for a closer look

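A search looked for single libraries far from the other 3 of their group (Dixon's test at its 95% critical value). It covered 74 groups of values, from most of the named members and from the summed level of the members, and found 7. Chance flags about 1 in 20 groups, or 3.7 here. In 4 cases control 3 was high: Mrps21 had 147 CPM there against 102 to 110 in the other controls, Mrps18c 78.9 against 58.6 to 61.5, Mrpl46 60.6 against 47.7 to 49.1 and Mrps18b 52.6 against 40.8 to 42.5. In the other 3 a simvastatin library was low: Mrpl42 had 285 CPM in simvastatin 3 against 341 to 353, Mrpl44 48.7 in simvastatin 1 against 51.3 to 51.7, and Mrps5 46.2 in simvastatin 1 against 52.9 to 53.5. None of these 7 genes passed the test between groups. The summed level of the members was not flagged in either group.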

How the results depend on the processing

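The count of falling members was 5 in the fit reported, and 3 with library totals alone or with no filter beyond 1 count, 2 with the replicate number as a block, 0 in set 1 alone, 2 among members without an overlapping gene and 2 without the 3 libraries low in Mrps24. It was between 1 (without simvastatin 3) and 6 (without control 4) when 1 library was left out, 6 with DESeq2 or set as a term, 7 in set 2 alone, and 5 with the other alternatives. The count of rising members was 0 in each alternative run. Mrpl45 was called in 18 of 19 alternatives, Mrpl18 in 17, Mrpl34 in 14, and Mrpl12 and Mrps11 in 6. The median of the members ran from -0.23 to -0.10, and 59 to 74 of 78 members were below 0.

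Beyond the members, over the 4 lists of mitochondrial translation, the mitochondrially encoded mRNAs and the genes for mitochondrial DNA transcription and replication, the count of 3 falling genes became 5 with DESeq2, 1 with the replicate block, 5 with set as a term, 0 in set 1 alone and 11 in set 2 alone, and ran from 0 to 2 with 1 library left out. The count of 1 rising gene became 2 with DESeq2 and 3 in set 2 alone. The cause of these shifts was not tested, beyond the smaller number of samples or genes in some fits.

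Of 36 members followed through the alternatives, the sign changed in at least 1 alternative for 9, none of them called over all libraries. Mrpl13, Mrps15 and members listed only for not overlapping between groups were not followed. With 1 library left out, Mrpl22 (0.00) ran from -0.04 to 0.06, Mrpl23 (-0.01) from -0.09 to 0.12, Mrpl24 (0.01) from -0.05 to 0.07, Mrpl39 (0.05) from 0.00 to 0.09, Mrpl44 (-0.02) from -0.04 to 0.00 and Mrpl54 (-0.01) from -0.11 to 0.09. With library totals alone Mrpl23 was at 0.02, Mrpl44 at 0.01 and Mrpl54 at 0.01. In set 1 alone Mrpl22 was at -0.04, Mrpl24 at -0.04, Mrpl3 at 0.37, Mrps24 at 0.70 and Mrps26 at 0.33. In set 2 alone Mrpl23 was at 0.09, Mrpl44 at 0.01 and Mrpl54 at 0.06. Without the 3 libraries Mrpl23 was at 0.03, Mrpl24 at -0.04, Mrpl39 at -0.06, Mrpl54 at 0.09 and Mrps24 at 0.05.

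With the replicate block Mrpl23 was at 0.00. Replicate numbers did not pair the libraries: same-numbered libraries had correlations of -0.143, 0.045, 0.133 and -0.162 between their deviations from the group means, and 0 of 8 libraries correlated best with its own number. With 69 counts or more for each member in each library, counting error was small beside the spread between libraries for most members, and Mrps30 and Mrpl53 were the least deeply counted.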
